A study of Homo sapiens with 47 samples.

Results

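Noncoding snoRNA host genes are transcribed into long RNAs whose introns carry small nucleolar RNAs (snoRNAs). The 10 genes GAS5, SNHG1, SNHG3, SNHG5, SNHG6, SNHG7, SNHG8, SNHG12, SNHG15 and ZFAS1 were taken by symbol, as noncoding hosts of intronic snoRNAs, from a table of counts for 58395 genes. All 10 were abundant enough to be tested, as were 28025 genes of the table. Wild-type HEK293T cells, a human embryonic kidney line, were compared with EAF1-mutant HEK293T cells by RNA-seq of total RNA depleted of ribosomal RNA, with 3 libraries for each genotype. EAF1 is a subunit of elongation complexes that bind the MED26 subunit of Mediator, and in the mutant cells CRISPR editing replaced residues of its MED26-binding site with alanines. The comparison addresses which RNAs differ once this contact is lost. Wild-type cells carry the unedited gene, and both genotypes share the HEK293T background. The mutant cells are 1 edited line, so the mutation and any other difference between this line and its parent cannot be told apart.

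A host gene of this kind is transcribed by RNA polymerase II and spliced. After debranching of the intron, exonucleases trim it back to the snoRNA, which is protected by the proteins bound to it, while the spliced host RNA is exported and is often short-lived because nonsense-mediated decay removes it. C/D box snoRNAs guide 2′-O-methylation of ribosomal RNA with fibrillarin, and H/ACA box snoRNAs guide pseudouridylation with dyskerin.

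The wild-type libraries had totals of 59137210, 52541541 and 55637032 counts, against 57198018, 53369621 and 66611451 for the EAF1-mutant ones. Levels are given as CPM, counts relative to a library size that edgeR's TMM method adjusts for composition. The 10 host genes together took 0.120, 0.115 and 0.112% of each wild-type total and 0.104% of each EAF1-mutant total. The biological coefficient of variation over all genes was 4.11%, and p-values measure only the spread between these libraries. The methods name biological replicates, while neither they nor the labels say whether these were separate cultures. Without the composition step, that is with library totals alone, the median over all tested genes moved from 0.01 to 0.13 on the log2 scale, and every fold change given here carries that choice of zero.

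The labelled cell type was checked against 8 genes used as HEK293T markers, whose summed level was 658, 666 and 686 CPM in the wild-type libraries and 498, 493 and 504 CPM in the EAF1-mutant ones. VIM, an intermediate filament gene and the most abundant of them, averaged 380.5 ± 8.97 CPM (SD, n = 3) without the mutation and 199.4 ± 4.00 CPM with it, and PAX2 was under 1 CPM on average in both. VIM and NEFM were lower and KRT8 and KRT18 higher in EAF1-mutant cells at the threshold used below. Markers of other cell types summed to between 6.52 and 7.34 CPM per library, with COL1A1 the most abundant at a mean of 3.50 CPM and the blood cell genes PTPRC, CD3E and HBB near 0. Within this steady sum COL1A1 was higher (0.54) and COL3A1 lower (-2.18) past the threshold, the former only while wild-type replicate 1 was kept (0.40 without it). What part differences between the lines in these markers have in the host gene results was not tested.

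EAF1 RNA itself had 57.5, 58.4 and 56.5 CPM in the wild-type libraries and 19.7, 17.9 and 18.8 CPM in the EAF1-mutant libraries. EAF1 lies on the short arm of chromosome 3, where the 731 tested genes before 90 Mb had a median log2 fold change of -0.78. None of the 10 host genes lies on that chromosome.

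Among the 10 host genes, SNHG5 and GAS5 had less RNA in EAF1-mutant cells by more than the threshold, and none had more. The threshold was an adjusted p under 0.01 with a change of more than 0.5 on the log2 scale in either direction (edgeR's quasi-likelihood test, Benjamini-Hochberg adjustment over all tested genes). Thus 2 of 10 were lower, against 9.36% of all tested genes, and 0 of 10 were higher, against 11.0%. DESeq2 gave the same counts of 2 and 0. At an adjusted p under 0.05 with no limit on the fold, 7 of the 10 were lower and 2 higher, against 25.6% lower and 25.9% higher among all tested genes. With each library left out in turn, these counts ran from 6 to 7 lower and from 1 to 2 higher. The host genes are abundant RNAs, however, and among the 11418 tested genes averaging 10 CPM or more the shares were 41.3% lower and 28.4% higher by that rule, and 11.9% lower and 5.33% higher past the threshold. The median log2 fold change of the 10 was -0.18, against 0.01 over all tested genes and -0.05 over those with at least 10 CPM. With library totals alone the median was -0.06, and by the rule without a limit on the fold 5 were lower and 3 higher, against 18.0% and 36.5% of all tested genes under the same scaling. Among those with at least 10 CPM these shares were 28.6% and 44.2%.

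**Figure D1:**
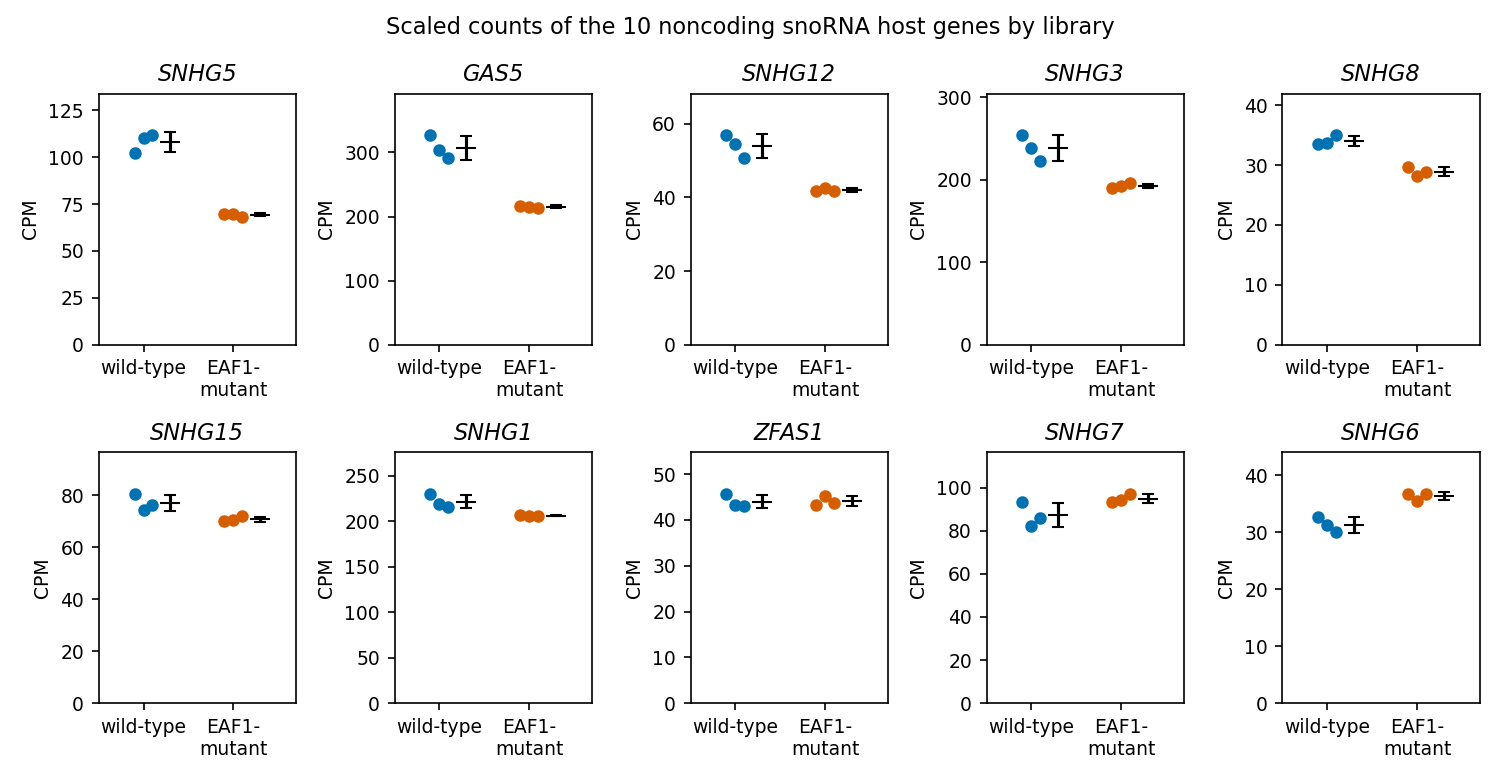
Scaled counts (CPM, y axes from 0) of each host gene in the 3 wild-type (blue) and 3 EAF1-mutant (orange) libraries, with black marks for the mean and bars for the SD. The wild-type and EAF1-mutant libraries overlap for ZFAS1 and are separate for the other 9 genes, as they are for 57.3% of all tested genes.

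The libraries of the 2 genotypes did not overlap for 9 of the 10 genes, ZFAS1 being the exception, against 57.3% of all tested genes and 73.5% of those with a mean of 10 CPM or more. Against the wild-type mean, the median log2 ratio of the 10 genes was -0.17, -0.20 and -0.17 in the 3 EAF1-mutant libraries.

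Hosts of C/D box snoRNAs are described first, and of these SNHG5 differed most. SNHG5 (ENSG00000203875, chr6:85650491-85678932, minus strand, GRCh38) hosts SNORD50A and SNORD50B, related C/D box RNAs. They are shown so that the pair can be compared, 5′ to 3′ on the host strand, from RefSeq positions in GRCh38.p14 (chr6:85677294-85677368 and chr6:85677589-85677659), with the C box letters TGATGA and the D box letters CTGA in capitals.
SNORD50A: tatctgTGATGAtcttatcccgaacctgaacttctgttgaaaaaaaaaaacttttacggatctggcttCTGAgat
SNORD50B: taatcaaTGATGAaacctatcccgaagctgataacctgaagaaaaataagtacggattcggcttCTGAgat

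SNHG5 had 102.0, 110.3 and 111.6 CPM in the wild-type libraries and 69.7, 69.7 and 68.3 CPM in the EAF1-mutant libraries, from raw counts between 3873 and 5975. All EAF1-mutant values lay well under the lowest wild-type one. The log2 fold change was -0.64 (SE 0.04, edgeR adjusted p = 4.15e-12), a fall to 64.1% of the wild-type mean. It stayed past the threshold with library totals alone, at -0.53.

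SNORD50B was counted at 3.73, 4.31 and 3.29 CPM in wild-type and 2.12, 2.07 and 2.37 CPM in EAF1-mutant libraries, which do not overlap. Its log2 fold change was -0.78 (SE 0.12, edgeR adjusted p = 8.36e-06), and it passed the threshold as its host did. Counts of SNORD50A were not analysed here. The neighbouring protein-coding gene SYNCRIP, an RNA-binding protein gene 6.43 kb away, had a log2 fold change of -0.27, and ENSG00000271793, which shares 943 exonic bases with SNHG5 on the same strand, had -0.27. The 20 tested genes nearest to SNHG5 had a median of -0.01, so that SNHG5 was lower than most of the genes around it.

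GAS5 (ENSG00000234741, chr1:173858559-173868882, minus strand) hosts a long row of mostly C/D box snoRNAs in its introns, and its spliced RNA is a classic target of nonsense-mediated decay. RefSeq places 11 snoRNAs inside GAS5, and SNORD44 (chr1:173865968-173866028) and SNORD76 (chr1:173866635-173866715) are shown as examples, marked in the same way. No counts of these snoRNAs were analysed here, so GAS5 is described by its host RNA alone.
SNORD44: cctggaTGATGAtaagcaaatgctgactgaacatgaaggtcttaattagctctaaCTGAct
SNORD76: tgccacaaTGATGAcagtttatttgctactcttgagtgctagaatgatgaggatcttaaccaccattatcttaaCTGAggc

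GAS5 had 326.6, 304.0 and 290.5 CPM in the wild-type libraries and 217.2, 215.1 and 212.6 CPM in the EAF1-mutant libraries. The EAF1-mutant libraries were tightly grouped below the wild-type ones, of which replicate 1 was the highest. The log2 fold change was -0.51 (SE 0.04, edgeR adjusted p = 1.57e-10), just past the limit of 0.5. Without wild-type replicate 1 it was -0.48, and with library totals alone it was -0.40, both short of that limit, so the count of 2 lower host genes falls to 1 in either case. It also did so when genes were kept at 1 CPM or more in 3 libraries, where GAS5 was at -0.4986.

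GAS5-AS1, an antisense RNA gene that shares 132 exonic bases with GAS5, was at -0.53 and passed the threshold, while ZBTB37, which overlaps GAS5 on the opposite strand with no shared exonic base, was at 0.25. Since the strand setting of the authors' counting is not given in the sources used here, reads of GAS5 and GAS5-AS1 cannot be told apart with certainty. The 20 tested genes nearest to GAS5 had a median log2 fold change of -0.26 and the 100 nearest a median of -0.31, lower than around the other hosts.

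SNHG1 (ENSG00000255717, chr11:62851978-62855953, minus strand) hosts a cluster of C/D box snoRNAs, with 7 loci matched to counts. SNORD29 and SNORD31 had no matched count and were not analysed. SNORD27 (chr11:62855012-62855083) and SNORD25 (chr11:62855565-62855631) show the shared box pattern.
SNORD27: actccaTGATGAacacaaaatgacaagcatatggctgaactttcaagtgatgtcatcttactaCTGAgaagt
SNORD25: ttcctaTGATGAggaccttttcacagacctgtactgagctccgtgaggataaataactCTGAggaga

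SNHG1 had 230.2, 219.0 and 215.8 CPM in the wild-type libraries and 206.7, 205.3 and 206.3 CPM in the EAF1-mutant libraries. The groups were separate but close. The log2 fold change was -0.11 (SE 0.04, edgeR adjusted p = 0.0177) and turned to 0.01 with library totals alone. Each of the 7 snoRNA loci had a lower mean in EAF1-mutant cells, with log2 fold changes from -0.17 for SNORD27 to -0.44 for one of the 2 SNORD22 records, none past the threshold. SNORD26, the most abundant by mean CPM, averaged 13.8 ± 0.805 CPM (SD, n = 3) in wild-type and 11.4 ± 0.488 CPM in mutant cells (edgeR, adjusted p = 5.31e-04, log2 fold change -0.28). SLC3A2 and WDR74, the protein-coding genes on either side, were at -0.04 and -0.11.

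ZFAS1 (ENSG00000177410, chr20:49278178-49299600, plus strand) hosts SNORD12, SNORD12B and SNORD12C and starts next to ZNFX1 on the opposite strand. SNORD12C (chr20:49278945-49279023) is shown because it differed while its host did not.
SNORD12C: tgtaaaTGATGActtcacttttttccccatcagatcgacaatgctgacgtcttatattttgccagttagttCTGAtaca

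ZFAS1 had 45.7, 43.2 and 43.1 CPM in the wild-type libraries and 43.3, 45.3 and 43.8 CPM in the EAF1-mutant libraries. The groups overlapped, and the log2 fold change was 0.00 (SE 0.04, edgeR adjusted p = 0.960), with 0.12 and an adjusted p of 0.0202 with library totals alone. SNORD12C had 3.18, 2.77 and 2.65 CPM in wild-type and 2.00, 2.16 and 1.95 CPM in EAF1-mutant libraries. These groups did not overlap, with a log2 fold change of -0.498 (edgeR adjusted p = 0.00152) that was just short of the limit on the fold and past it with DESeq2, at -0.51. SNORD12, with the most counts of the 3, was at -0.19 and did not pass (adjusted p = 0.160), with a range of -0.27 to -0.10 when each library was left out. A pair of short RNA records counted inside ZFAS1 exons were at 0.20 and 0.22, on the other side of 0.

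SNHG6 (ENSG00000245910, chr8:66920561-66926398, minus strand) hosts SNORD87, and the counts of the host differed in the direction opposite to those of the SNORD87 locus. SNHG6 had 32.7, 31.3 and 30.0 CPM in the wild-type libraries and 36.7, 35.5 and 36.7 CPM in the EAF1-mutant libraries. Every EAF1-mutant library was above every wild-type one, with a log2 fold change of 0.21 (SE 0.04, edgeR adjusted p = 3.32e-04). SNORD87 had 3.77, 2.95 and 3.33 CPM in wild-type and 2.35, 2.32 and 2.71 CPM in EAF1-mutant libraries. Its log2 fold change was -0.44 (SE 0.12, edgeR adjusted p = 0.00346). MCMDC2, which shares 1488 of the 2527 exonic bases of SNHG6 on the opposite strand, was at 0.25. As the strand setting of the counting is not given, reads of SNHG6 and MCMDC2 cannot be told apart with certainty. The flanking genes SGK3 and TCF24 were at 0.48 and 0.34, while the 20 tested genes nearest to SNHG6 had a median of 0.04 and the 100 nearest -0.0005.

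Hosts of H/ACA box snoRNAs spread over both directions as well. SNHG3 (ENSG00000242125, chr1:28505980-28510892, plus strand) hosts SNORA73A and SNORA73B, the U17 RNAs that act in cleavage of the ribosomal RNA precursor. SNHG3 had 253.9, 238.6 and 223.3 CPM in the wild-type libraries and 189.9, 192.4 and 195.6 CPM in the EAF1-mutant libraries. All EAF1-mutant values were lower, with a log2 fold change of -0.31 (SE 0.04, edgeR adjusted p = 1.05e-06). SNORA73A varied more between wild-type libraries, at 92.3, 83.1 and 62.5 CPM, and overlapped the EAF1-mutant values of 64.3, 71.6 and 73.4 CPM. SNORA73A and SNORA73B are close copies of each other, so counts of either are uncertain. RCC1, which shares 242 exonic bases with SNHG3 on the same strand and encodes the exchange factor for the GTPase Ran, was at -0.24, while PHACTR4 on the other side was at 0.28.

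SNHG12 (ENSG00000197989, chr1:28578538-28583132, minus strand) lies 67.6 kb from SNHG3 and hosts SNORA16A, SNORA44 and SNORA61 along with the C/D box RNA SNORD99. SNORA61 (chr1:28579764-28579893) is shown with its ACA box in capitals.
SNORA61: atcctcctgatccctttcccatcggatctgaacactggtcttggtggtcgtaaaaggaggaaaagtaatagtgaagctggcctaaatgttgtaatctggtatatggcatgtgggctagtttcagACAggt

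SNHG12 had 56.9, 54.5 and 50.6 CPM in the wild-type libraries and 41.6, 42.7 and 41.9 CPM in the EAF1-mutant libraries. The groups were separate, with a log2 fold change of -0.36 (SE 0.04, edgeR adjusted p = 3.26e-07). SNORA61 had 9.21, 9.28 and 8.31 CPM in wild-type and 5.84, 5.79 and 6.15 CPM in EAF1-mutant libraries, a log2 fold change of -0.59 (SE 0.07, edgeR adjusted p = 4.92e-07) past the threshold, and -0.47 with library totals alone. The other 3 snoRNA loci in this host were between -0.20 and -0.18, with adjusted p from 0.0746 to 0.285 (edgeR). With each library left out in turn, their values ran from -0.29 to -0.03, both ends being those of SNORD99. TRNAU1AP, a tRNA selenocysteine factor gene that meets SNHG12 on the opposite strand, was at 0.22, and TAF12 on the other side at -0.05.

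SNHG8 (ENSG00000269893, chr4:118278703-118285316, plus strand) hosts SNORA24 (chr4:118279190-118279320), a guide for pseudouridines of 18S ribosomal RNA, shown with its ACA box in capitals.
SNORA24: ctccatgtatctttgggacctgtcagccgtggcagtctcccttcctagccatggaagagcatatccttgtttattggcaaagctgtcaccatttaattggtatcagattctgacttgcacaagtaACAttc

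SNHG8 had 33.5, 33.7 and 35.0 CPM in the wild-type libraries and 29.7, 28.2 and 28.9 CPM in the EAF1-mutant libraries. The groups were separate, with a log2 fold change of -0.24 (SE 0.04, edgeR adjusted p = 8.34e-05). SNORA24 had 4.92, 5.62 and 5.92 CPM in wild-type and 3.73, 3.90 and 3.77 CPM in EAF1-mutant libraries. Its log2 fold change of -0.53 (edgeR adjusted p = 5.24e-05) was past the threshold, but was -0.49 without wild-type replicate 3 and -0.41 with library totals alone. PRSS12, a serine protease gene that shares 2487 exonic bases with SNHG8 on the opposite strand, was higher at 0.51.

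SNHG7 (ENSG00000233016, chr9:136721366-136728184, minus strand) hosts SNORA17A and SNORA17B. SNHG7 had 93.2, 82.2 and 85.9 CPM in the wild-type libraries and 93.3, 94.2 and 97.1 CPM in the EAF1-mutant libraries. Wild-type replicate 1 lay only just under the lowest EAF1-mutant library, and the log2 fold change was 0.12 (SE 0.04, edgeR adjusted p = 0.0205), or 0.07 without wild-type replicate 2. SNORA17B averaged 4.79 ± 0.486 CPM (SD, n = 3) in wild-type and 6.00 ± 0.149 CPM in mutant cells, with a log2 fold change of 0.32 (edgeR adjusted p = 0.00428). The 20 genes nearest to SNHG7 had a median log2 fold change of 0.45 and the 100 nearest 0.43, so SNHG7 differed by less than the typical gene around it.

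SNHG15 (ENSG00000232956, chr7:44983019-44986961, minus strand) hosts SNORA9 and is a short-lived stress-inducible RNA. SNHG15 had 80.5, 74.2 and 76.4 CPM in the wild-type libraries and 70.0, 70.4 and 71.9 CPM in the EAF1-mutant libraries. The groups were separate but near each other, with a log2 fold change of -0.12 (SE 0.04, edgeR adjusted p = 0.0130), and -0.01 with library totals alone. SNORA9 overlapped between the groups, at -0.17, or -0.26 to -0.04 with each library left out.

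**Figure D2:**
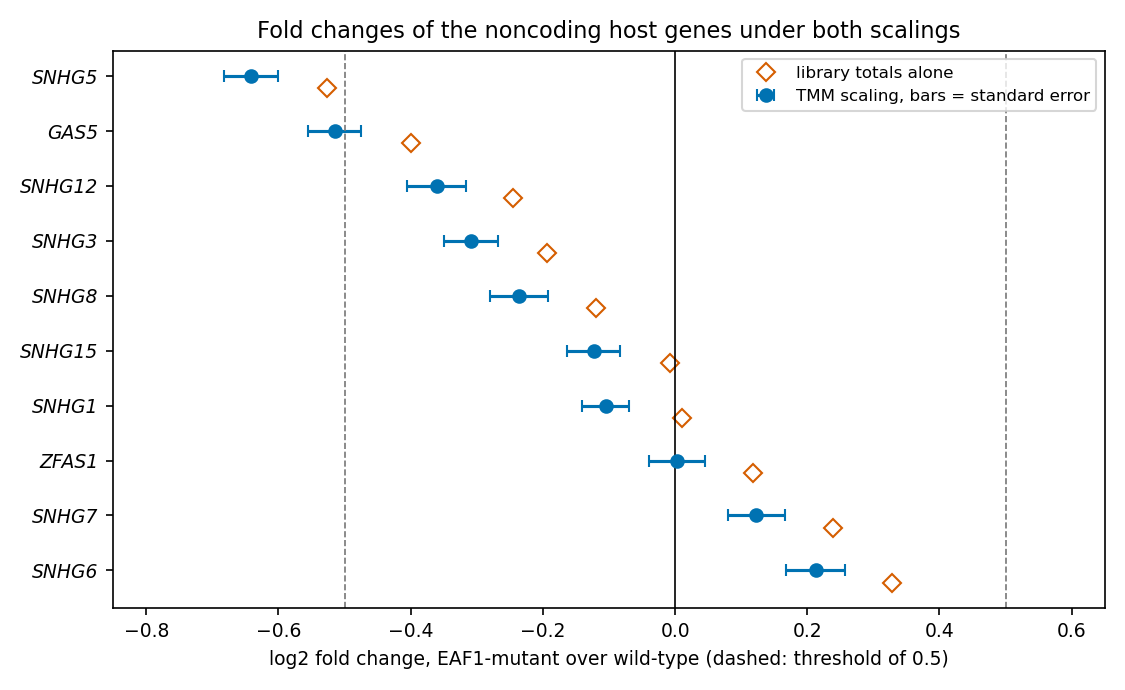
Log2 fold change of each host gene, EAF1-mutant over wild-type, with TMM scaling (filled circles, bars for the standard error) and with library totals alone (open diamonds). The order runs from SNHG5 at -0.64 to SNHG6 at 0.21, and SNHG1 lies on the other side of 0 with library totals alone.

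Levels of different genes can be compared only per length, and lengths were taken from the merged exons of GENCODE v44, which may be longer than those the authors counted. Per kb of exon, the wild-type levels of GAS5, SNHG3 and SNHG1 were 62.3 ± 3.70, 58.4 ± 3.74 and 55.7 ± 1.90 CPM (SD, n = 3), and neighbours in this order differed by about their SD. These levels may include reads of snoRNAs inside the exons of SNHG1 and SNHG3, so the order of the 3 genes may not be that of their host RNA alone. The other hosts lay between 5.15 CPM per kb for SNHG8 and 19.5 for SNHG15 in wild-type cells.

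In all, 22 snoRNA loci inside 9 of the hosts were matched to counts through GENCODE v44, and all 22 were tested. RefSeq snoRNAs with no matched count, such as those of GAS5, were not analysed. Of these, 3 were lower past the threshold and 0 higher, by edgeR, and with no limit on the fold 13 were lower and 1 higher (adjusted p under 0.05). Among all tested genes the shares were 9.36% and 11.0% past the threshold, and 25.6% and 25.9% with no limit on the fold. With library totals alone 1 locus was lower past the threshold, and 8 were lower and 1 higher with no limit on the fold, where all tested genes had 6.57% lower past the threshold, and 18.0% lower and 36.5% higher with no limit. The median of the 22 in log2 fold change was -0.20, and 20 of the 22 were below 0. The snoRNAs are not independent of their hosts in this table. For SNORA17B, 2 overlapping records held 298 and 296, 243 and 241, and 230 and 230 wild-type counts, so the same reads were counted for each record they overlap, and snoRNA reads may likewise be counted for the host where its annotated exons include the snoRNA. Host reads over such a locus may in turn be counted for the snoRNA, so locus counts may not be of the snoRNA alone. Such loci held from 3.50% of the host count for SNHG5 to 37.0% for SNHG12 on average over the wild-type libraries. With their counts taken away from those of the host, a setting chosen after seeing the data, SNHG1 was at -0.01 (edgeR adjusted p = 0.860) and SNHG3 at -0.37, while the median of the 10 hosts was -0.15 and the count past the threshold was 2.

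**Figure D3:**
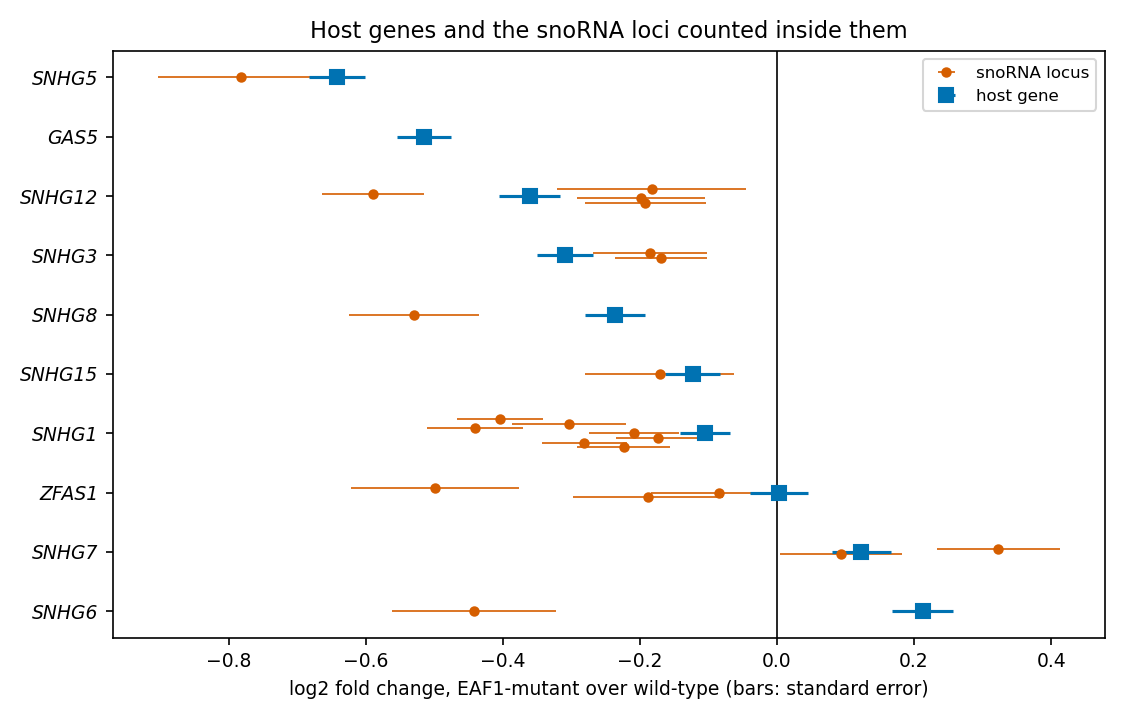
Log2 fold change of each host gene (blue squares) and of the snoRNA loci counted inside it (orange circles), EAF1-mutant over wild-type, with bars for the standard error. SNORD87 lies at -0.44 and its host SNHG6 at 0.21, and GAS5 has no snoRNA locus in the plot.

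The balance between a host and its snoRNAs was taken as the log2 ratio of their CPM within each library, which does not depend on how libraries are scaled. For SNHG6 the ratio was -3.12, -3.41 and -3.17 in wild-type and -3.97, -3.93 and -3.76 in EAF1-mutant libraries, a difference of -0.65 between the group means. The ratio was also lower in every EAF1-mutant library than in any wild-type one for SNHG8, ZFAS1 and SNHG1, by -0.29, -0.23 and -0.19. An exact two-sided permutation test gave p = 0.1 for each of these 4 hosts, the smallest value that 3 against 3 libraries allow, and 0.225 after Benjamini-Hochberg adjustment over the 9 hosts tested. For the other 5 hosts the libraries overlapped, with exact permutation p from 0.2 to 0.9.

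Hosts were also set beside the genes around them. SNHG5, SNHG12 and SNHG3 were lower by more than 0.3 on the log2 scale, while the 20 tested genes nearest to each had medians of -0.01, -0.05 and 0.01. For GAS5 and SNHG7 the genes around them were shifted in the same direction as the host. What part regional differences between the lines have in the values of GAS5 and SNHG7 was not tested.

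**Figure D4:**
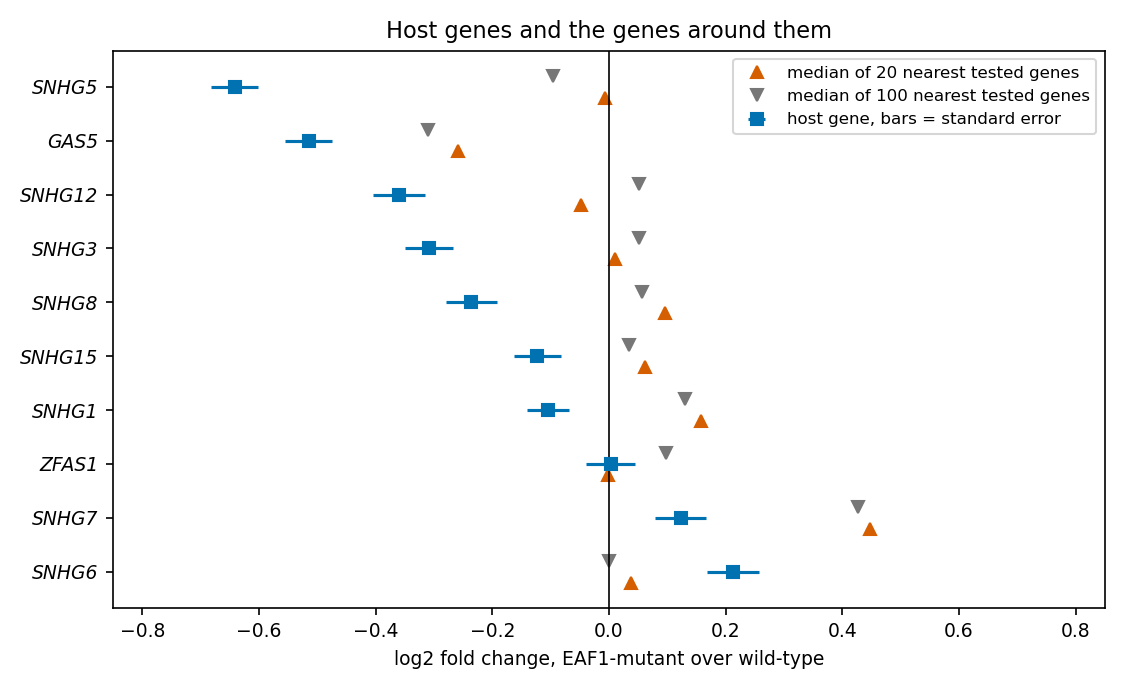
Log2 fold change of each host gene (blue squares, bars for the standard error) beside the median of the 20 nearest (orange) and 100 nearest (grey) tested genes. Around GAS5 the medians are -0.26 and -0.31, and around SNHG7 they are 0.45 and 0.43.

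Other genes of the snoRNA pathway were counted from lists, to be read beside the 9.36% lower and 11.0% higher among all tested genes, or 11.9% and 5.33% at 10 CPM or more. With library totals alone these shares were 6.57% and 14.9%, or 8.16% and 8.57%. Of 18 other noncoding hosts 16 were tested, with 2 lower and 0 higher past the threshold and a median of -0.04. SNHG14, the long host of the SNORD115 and SNORD116 repeats, averaged 11.4 ± 0.591 CPM (SD, n = 3) in wild-type and 5.72 ± 0.590 CPM in mutant cells, which is -0.99 on the log2 scale, and SNHG25 was at -0.77. With library totals alone 2 were lower and 1 higher, and the median was 0.08.

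Of 42 protein-coding hosts, all tested, 8 were lower and 0 higher past the threshold, and the median was -0.23. With library totals alone 5 were lower and the median was -0.11, and with no limit on the fold the counts moved from 28 lower and 4 higher to 22 and 10. By that rule 25.6% of all tested genes were lower and 25.9% higher, or 18.0% and 36.5% with library totals alone. Among those with at least 10 CPM the shares were 41.3% and 28.4%, or 28.6% and 44.2% with library totals alone. RPL32, GNL3 and RPSA differed most, at -1.77, -1.03 and -0.97, and all 3 lie on the short arm of chromosome 3, like EAF1. Off that arm the 39 remaining hosts had 5 lower and a median of -0.19. The 23 ribosomal protein genes among the 42 had a median of -0.22.

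Of 17 genes of the core proteins and assembly factors of snoRNPs, 3 were lower and 0 higher, with a median of -0.20, or -0.08 with library totals alone and the same counts. They were SHQ1 at -0.85, an assembly chaperone gene on the short arm of chromosome 3, NOP56 at -0.69, a core protein gene of C/D box particles that is itself a host, and ZNHIT6 at -0.65, an assembly factor gene. Of 14 nonsense-mediated decay factor genes, 2 were lower and 0 higher, with a median of -0.21, while with library totals alone 1 was lower and the median was -0.09. RBM8A, a gene of the exon junction complex, was at -0.68, and UPF2 at -0.55, or -0.44 with library totals alone.

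Of 19 genes of nuclear and 5′ to 3′ decay, 4 were lower and 0 higher, with a median of -0.12. With library totals alone 2 were lower and 1 higher, and the median was 0.00. EXOSC7, an exosome subunit gene on the short arm of chromosome 3, was at -0.91, the exosome helicase gene MTREX at -0.83 and the nuclear exonuclease gene XRN2 at -0.58, or -0.47 with library totals alone. Of 12 genes of the integrated stress response, 4 were lower and 0 higher, with a median of -0.32 that was -0.21 with library totals alone, led by DDIT4 at -1.37, ASNS at -1.22 and CHAC1 at -1.05. What part lower levels of these factors have in the host gene values was not tested.

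**Figure D5:**
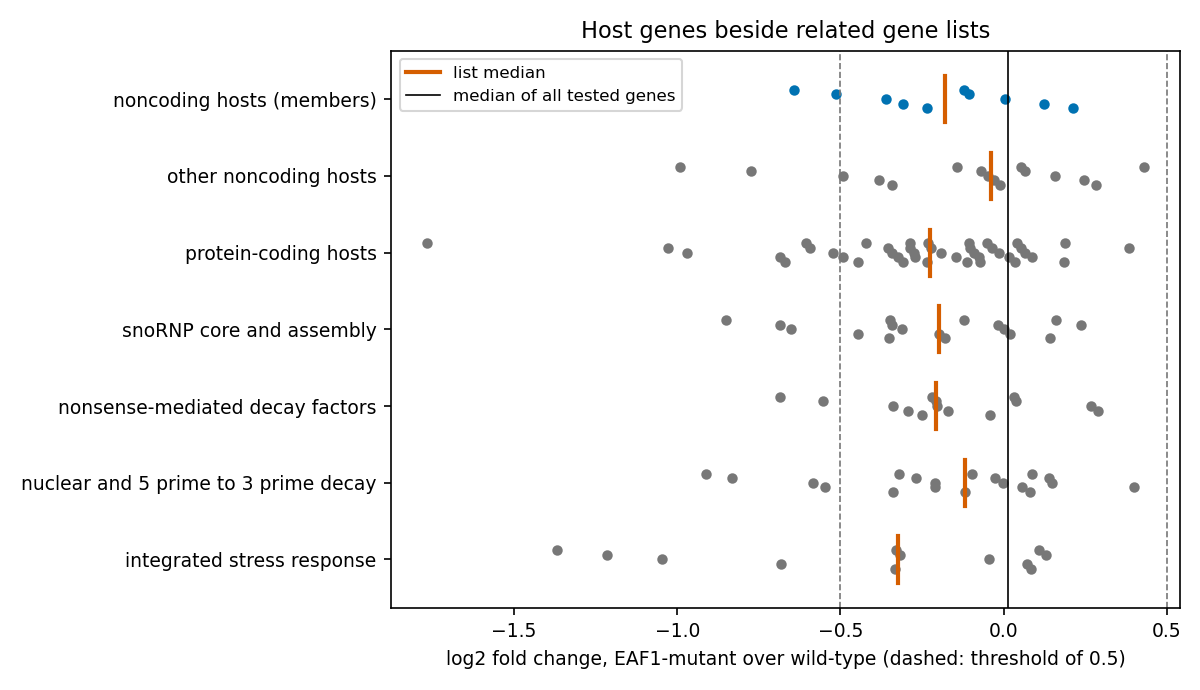
Log2 fold changes of the tested genes in each list, EAF1-mutant over wild-type, with the 10 noncoding hosts in blue, list medians in orange and the median of all tested genes as a black line. Dashed lines mark the limit of 0.5, and the medians run from -0.32 for the integrated stress response to -0.04 for the other noncoding hosts.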

How the data were processed

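The analysis covers 6 RNA-seq libraries of HEK293T cells, 3 wild-type and 3 EAF1-mutant by their labels, made from total RNA without ribosomal RNA. The authors trimmed stranded paired-end reads, used HISAT2 for mapping to GRCh38 and Rsubread for counting by Ensembl gene, and deposited raw counts. How they treated strand, multi-mapped reads and overlapping genes is not stated in the sources used. The other experiments of the series were not used here.

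These counts were filtered (filterByExpr), scaled (TMM) and tested (quasi-likelihood) in edgeR 4.0.16 under R 4.3.3, with Benjamini-Hochberg adjustment across 28025 genes. Calls needed adjusted p under 0.01 and more than 0.5 of log2 change either way. DESeq2 1.42.0, other scalings and filters, an adjusted p under 0.05 with no limit on the fold, a replicate block and each library left out were alternatives. Fits were tested on simulated counts. The first limit set for genes recovered was not met, mostly through small changes, and was replaced after that outcome was seen by limits on the largest changes and on the median estimates. Of 58395 genes, 57754 matched GENCODE v44 (GRCh38), the source of symbols, positions, exon lengths and nested genes; the others held 2.81% of counts. snoRNA sequences came from RefSeq positions (GRCh38.p14) and the bases of the GRCh38 genome. Python 3.11.15 with numpy 2.4.6 was used for summaries. At these depths every host gene had at least 1567 counts in every library.

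Genes named were the 10 hosts, EAF1, for each host its snoRNA with the highest mean CPM and any other called one, tested genes overlapping it, the nearest tested protein-coding genes, and in each list the 3 largest falls and rises among called genes averaging 1 CPM or more; others, such as SNORD12C, were chosen after their values were seen. A result that needs an item withheld for evaluation was left out. Members and lists were chosen with earlier results of these data known.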

Additional observations from a re-analysis of the deposited data

How the results depend on the processing

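The count of 2 host genes lower past the threshold was 1 with library totals alone and 1 with a filter of 1 CPM in 3 libraries, where GAS5 was just short of the limit on the fold, and 1 to 2 with each library left out. At an adjusted p under 0.05 with no limit on the fold, 7 host genes were lower and 2 higher, 7170 and 7250 of all genes, and 13 and 1 of the snoRNA loci. With each library left out, that rule gave 6 to 7 host genes lower and 1 to 2 higher. The count of lower snoRNA loci was 1 with library totals alone and 3 to 5 with each library left out. The median log2 fold change of the 10 hosts was -0.0639 with library totals alone, -0.15 with nested snoRNA counts taken away, a setting chosen after seeing the data, and -0.21 to -0.17 with each library left out.

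Direction turned for SNHG1 (0.01) and SNORD12B (0.0307) with library totals alone. It also turned under that scaling for the neighbouring genes SLC3A2 (0.0737), WDR74 (0.00496) and TAF12 (0.0642). For ZFAS1, at 0.003, it turned with DESeq2 (-0.00767), RLE size factors (-0.00179) and some libraries left out (-0.0284 to 0.0178). The cause of these shifts was not tested beyond the change of scaling.

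Same-numbered libraries of the 2 genotypes correlated by -0.005, -0.017 and 0.010 in their deviations from the group means. No effect shared by same-numbered libraries was thus seen, while the labels do not say whether they were prepared together. With the number as a block, 2 host genes were lower and 0 higher, and 2631 and 3055 of all genes. Depth does not limit the host genes, but snoRNA loci under 5 CPM have standard errors of about 0.1.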
